A study of Arabidopsis thaliana with 30 samples.

Results

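Root stumps of Arabidopsis thaliana that had been regenerating a tip for 22 h were compared with a root section taken further from the tip. The stump group holds 5 arrays and the section group 3 arrays, chosen by their titles, out of 30 arrays in the whole series. All plants were wild type of the Col-0 background, and each array measured the RNA of at least 25 pooled pieces of root on the Affymetrix ATH1 array, after 2 rounds of amplification from 50 ng of total RNA. For the stumps at 22 h, seedlings of 4 days post germination (dpg) had lost the distal 130 µm of the root, were left to recover, and gave up the 70 µm behind the cut. The section was cut out between 270 and 340 µm from the tip and collected at once. The design text calls it wounded tissue that does not regenerate, and its labels give no age. The titles print these lengths in mm and the protocol in µm, which is the unit used here. Stumps collected 0, 5 and 13 h after the cut and intact tips of 4 dpg (4 arrays each) are set beside the comparison where they place a gene in time or position. Position along the root, time since the cut and possibly age differ together between stump and section, so their parts in a difference cannot be told apart. The labels do not say whether the pools came from separate sowings, so the tests measure spread between pools. That spread was estimated over all 30 arrays and not from these 2 groups alone.

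A root grows from its tip. The meristem there holds stem cells around a quiescent centre, and their daughters divide, then stop dividing, elongate and mature as they are displaced away from the tip. A root that loses its tip together with the quiescent centre can rebuild both from the stump when the cut lies within the meristem, and this capacity is lost in more mature tissue. Dividing cells are known for high expression of mitotic genes and of the genes that build ribosomes, and elongating cells for genes of the cytoskeleton and of wall loosening.

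Signals were compared as log2(signal + 32), so that 1 unit is a doubling for bright probe sets and differences of dim probe sets are understated. A probe set was called when limma's adjusted p was under 0.05 and the difference at least 1 on this scale. By that rule 2770 of 22746 probe sets (12.2%) separated the stump at 22 h from the section. Of these, 1690 (7.43% of all) were higher in the stump and 1080 (4.75%) were lower. The stump had all 5 signals above all 3 section signals in 13.1% of probe sets and all below in 9.21%. For 8768 probe sets (38.5%) the 95% interval of the difference lay between -1 and 1. In 4627 of these (52.8%) both group means were below the median of all signals, 90.3, where adding 32 narrows the interval, so for dim probe sets it does not show levels within a doubling of each other.

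The whole distribution was shifted upward, with a median difference of 0.20 over all probe sets, and array medians ran from 82.0 to 122.6 in the stump at 22 h against 66.1 to 73.5 in the section. That shift depends on scaling: the median difference became 0.00 after quantile normalization and -0.17 after median centring. The share of calls that were higher in the stump was 61% with the signals as deposited, 50.2% with quantile normalization and 25.8% with median centring, and 50.8% with a 4-fold larger pseudocount. List medians below are therefore to be read against 0.20. Counts of calls in a list are to be read against the 7.43% of all probe sets called higher and the 4.75% called lower. The stump arrays were less alike (pairwise r of 0.821 to 0.934 within the group) than the section arrays (0.96 to 0.967). Stump array 1 correlated least with the section (mean r of 0.806, against 0.868 to 0.875 for the other 4), and stump arrays 2 and 3 carried more root hair RNA than the others, as described further on. No 2 arrays held identical values.

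Among named genes, the widest gap in favour of the regenerating stump belonged to AT2G38870, a protease inhibitor of the potato inhibitor I family. Its signals were 3614, 10768, 5999, 5178 and 7023 in the stump at 22 h, against 14.8, 12.6 and 45.6 in the section. The groups were far apart, the log2 difference being 6.82 ± 0.44 (SE, adjusted p = 7.78e-13). The thaumatin-like gene ATLP-1 had signals of 7122, 1541, 3904, 3684 and 4446 in the stump, against 118.1, 69.3 and 87.0 in the section (difference 4.94 ± 0.38, adjusted p = 3.72e-11). The defensin gene LCR69 reached 1243, 8394, 4865, 1437 and 1162 in the stump, against 87.5, 47.1 and 83.4 in the section (4.59 ± 0.45, adjusted p = 1.21e-08). All 5 stump values of both genes lay above every section value, with LCR69 highest in stump arrays 2 and 3. MT1C, a metallothionein gene, was the most variable of the leading genes, with 1436, 7447, 4133, 255.3 and 1151 in the stump, against 36, 10.5 and 3.8 in the section (5.20 ± 0.78, adjusted p = 1.17e-05).

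The other leading genes of the stump formed a mixed set of wall, secreted and signalling proteins. AT3G53190, a pectate lyase gene, was one of the steadiest, at 2944, 2161, 3676, 2581 and 3145 in the stump, against 305.5, 256.7 and 194.6 in the section (3.36 ± 0.22, adjusted p = 7.78e-13). IAA33, a gene of the Aux/IAA family of auxin signalling proteins, had 393.4, 350.2, 339.8, 330.5 and 540.3 in the stump, against 26.5, 4.1 and 2.3 in the section (3.32 ± 0.31, adjusted p = 3.25e-09). Neither gene showed overlap between the groups. The differences of the remaining 9, namely AT5G22580, AT3G15720 of the pectin lyase-like family, the acyltransferase gene AT4G15390, AT3G15240, the glycosyltransferase gene UGT87A2, the carboxypeptidase-like gene scpl48, the jacalin-type lectin gene AT1G52100, the pectin methylesterase gene AT1G02810 and AT5G53880, lay between 3.23 and 4.43. Each of these 9 was higher in all 5 stump arrays than in any section array.

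**Figure D1:**
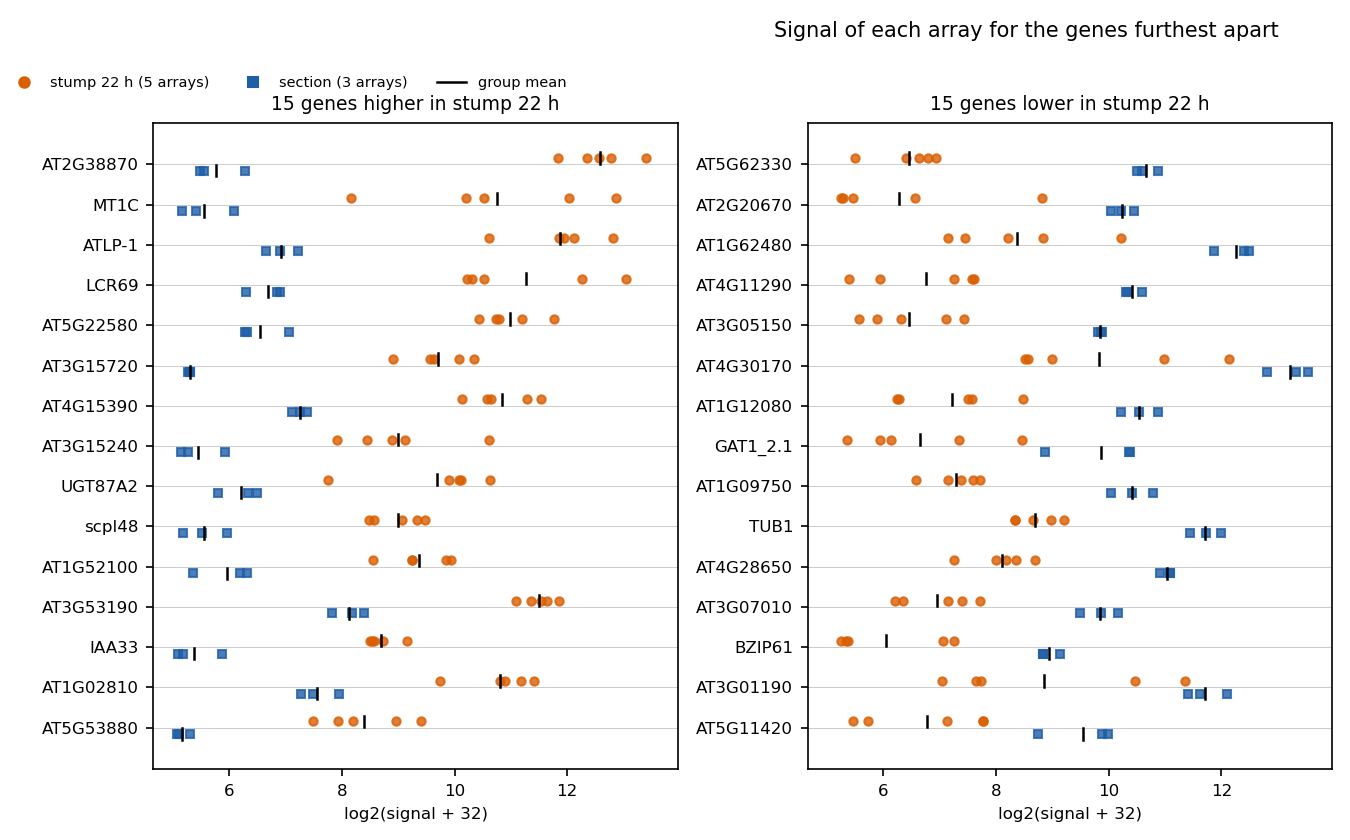
Signals of single arrays, as log2(signal + 32) on the horizontal axis, for the 15 named genes furthest higher (left panel) and furthest lower (right panel) in the stump at 22 h. Orange circles are the 5 stump arrays, blue squares the 3 section arrays and black bars the group means; the groups do not overlap for any of these 30 genes, although AT3G01190 and MT1C spread widely within the stump.

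The genes that the stump had least of, relative to the section, included root peroxidases, a tubulin and genes of the wall and of transport. AT5G62330 was lowest, with signals of 52.9, 67.7, 79.1, 13.3 and 90.7 in the stump at 22 h, against 1510, 1840 and 1417 in the section (log2 difference -4.20 ± 0.32, adjusted p = 4.79e-11). TUB1, a beta-tubulin gene, had 291.3, 557.0, 469.1, 368.9 and 290.0 in the stump, against 2744, 3339 and 4033 in the section (-3.02 ± 0.43, adjusted p = 5.31e-06). AT4G28650, a leucine-rich repeat receptor kinase gene, had 224.8, 382.2, 258.3, 295.2 and 120.8 in the stump, against 1901, 2132 and 2139 in the section (-2.93 ± 0.33, adjusted p = 1.35e-07). For all of these every stump value lay below every section value.

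Other members of the low group were not uniform within the stump. The peroxidase gene AT4G30170 had 347.7, 4435, 1984, 475.5 and 333.3 in the stump, against 7152, 10161 and 11864 in the section (-3.39 ± 0.66, adjusted p = 0.000363). A second peroxidase gene, AT3G01190, had 99.9, 2598, 1377, 167.5 and 181.2 in the stump, against 2671, 3116 and 4377 in the section (-2.86 ± 0.73, adjusted p = 0.00539). In both, stump arrays 2 and 3 were the highest of the 5 and still below every section array. AT2G20670 showed the same kind of spread through 1 array, with 7.1, 420.4, 62.9, 11.9 and 5.9 in the stump, against 1017, 1358 and 1157 in the section (-3.95 ± 0.58, adjusted p = 7.52e-06). The other 9 were AT1G62480, the peroxidase gene AT4G11290, the sugar transporter-like gene AT3G05150, AT1G12080, the glutamine amidotransferase gene GAT1_2.1, the aspartyl protease gene AT1G09750, the pectate lyase gene AT3G07010, the transcription factor gene BZIP61 and AT5G11420, with differences from -3.88 to -2.77.

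Genes of cell division stood higher in the stump. Of 15 genes listed for mitosis and cytokinesis, 12 were called higher (80%, beside 7.43% of all probe sets) and 1 lower (6.67%, beside 4.75%). The median difference was 1.29. AUR2, which encodes an Aurora kinase that acts on mitotic chromosomes and the forming cell plate, had signals of 577.9, 322.6, 438.0, 448.0 and 517.9 in the stump, against 42.6, 80.2 and 65.2 in the section (log2 difference 2.38 ± 0.26, adjusted p = 6.63e-08). Its relative AUR1 had 1566, 500.5, 895.2, 882.8 and 1334 in the stump, against 213.9, 224.3 and 245.2 in the section (1.94 ± 0.31, adjusted p = 2.36e-05). Neither Aurora gene overlapped between the groups. The chromatin protein genes 3xHMG-box2 (2.55) and 3xHMG-box1 (1.79), TOPII of topoisomerase II (1.94), the phragmoplast motor gene KINESIN-12B (1.90), the kinesin gene AT2G28620 (2.34) and the spindle checkpoint genes BUBR1 (1.12) and BUB3.1 (1.15) were also higher. HTR12 of the centromeric histone (0.17) and ATSMC2 of condensin (0.62) were not called, and KINESIN-13A, which is known in nondividing cells too, was lower (-1.45). The count of genes called higher was 7 with median centring and 7 with a 4-fold larger pseudocount, and 12 without stump arrays 2 and 3.

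Ribosome production genes were nearly uniform. All 21 listed ribosome biogenesis genes had a positive difference (beside 64.6% of all probe sets) and 18 of them were called higher, none lower, with a median of 1.42. AT3G03920, for the Gar1 protein of small nucleolar particles, had 7523, 3501, 5192, 6609 and 7416 in the stump, against 1528, 1428 and 747.7 in the section (2.27 ± 0.27, adjusted p = 2.97e-07). AT5G08180, for a protein of the same kind of particle, had 1715, 1057, 1000, 1240 and 1606 in the stump, against 337.4, 278.6 and 233.4 in the section (2.09 ± 0.30, adjusted p = 4.98e-06). Every stump value of both genes was higher than every section value, and for AT3G03920 stump array 2 was the lowest of the 5. The genes not called were PRH75 (0.60), AT5G14520 (0.89) and NRPA1, the largest subunit of RNA polymerase I (0.79), while its second subunit gene NRPA2 was called (1.42). With median centring 11 were called higher, and with a 4-fold larger pseudocount there were 10.

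Genes of the ribosomal proteins themselves had smaller differences. Of 120 genes, 24 were called higher (20%, beside 7.43% of all probe sets) and none lower. In 117 the difference was above 0 (beside 64.6% of all), with a median of 0.61. The largest was AT2G32220, a gene of ribosomal protein L27, at 833.3, 419.2, 610.1, 721.4 and 967.2 in the stump, against 136.7, 77.4 and 63.4 in the section (2.57 ± 0.27, adjusted p = 3.84e-08). The groups did not overlap for this gene, nor for 56 more of the list (57 in all, with all 5 stump values above all section values, and none below). Over all probe sets 13.1% lay above the section in this way and 9.21% below. Many ribosomal proteins come from several near-identical genes, so probe sets may pick up more than 1 copy. The median was 0.24 after centring, where 12 were called higher.

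Of the genes that pattern the meristem, only 5 had a named probe set. BBM, an AP2 factor of the PLETHORA group that promotes stem cell identity, had signals of 148.0, 50.5, 180.1, 65.4 and 163.7 in the stump, against 5.8, 6.8 and 12.5 in the section (log2 difference 1.83 ± 0.38, adjusted p = 0.000695). AGL42, a MADS-box gene known as a marker of the quiescent centre, had 203.3, 154.5, 118.8, 83.1 and 109.1 in the stump, against 7.8, 51.7 and 28.9 in the section (1.45 ± 0.42, adjusted p = 0.0149). UPB1, which encodes a factor that represses peroxidase genes and promotes the change from division to elongation, had 130.8, 368.7, 364.8, 147.3 and 121.5 in the stump, against 706.3, 587.6 and 1125 in the section (-1.79 ± 0.46, adjusted p = 0.00559). In all 3 the groups did not overlap, and the 2 stump arrays highest for UPB1 were arrays 2 and 3. The calls for AGL42 and UPB1 rested on the small section group: without section array 3 the adjusted p was 0.0513 for AGL42 and 0.0618 for UPB1, and without section array 1 it was 0.114 for AGL42. With a 4-fold larger pseudocount the differences of BBM (0.84) and AGL42 (0.72) fell below 1 and neither was called. JKD, a zinc finger gene of ground tissue patterning, was at 28.6 to 263.1 in the stump and 49.3 to 130.9 in the section. CR4, a receptor kinase gene of the root cap and stem cell niche, was at 9.7 to 18.8 in the stump and 6.5 to 11.7 in the section. Neither was called, and the values overlapped.

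The lists of DNA synthesis genes were short and held no calls. None of 6 DNA replication genes and none of 8 core histone genes was called, beside 12.2% of all probe sets, with median differences of 0.55 and 0.16. Lists this short can lack calls at that share, so nothing is concluded from their absence. POLA3, a DNA polymerase alpha subunit gene, lay above the section in every stump array, with 615.2, 479.6, 510.2, 547.2 and 478.2 against 262.1, 292.7 and 282.4 in the section, and its difference of 0.84 ± 0.26 fell short of the required 1 (adjusted p = 0.0215). AT5G26680 of the DNA replication list fell short too (0.89, adjusted p = 0.00635). Whether these lists differ from the mitotic genes was not tested. SIM, which blocks cyclin-dependent kinases and favours endoreduplication, the DNA doubling of maturing cells, had 426.7, 563.1, 529.4, 294.5 and 247.0 in the stump, against 986.2, 1071 and 1335 in the section. All stump values lay below the section, but the adjusted p was 0.0538 for a difference of -1.44 ± 0.52, and the gene was called under 8 of 19 alternative settings. The other 2 genes of that list, AT5G02420 (-0.28) and AT1G08180 (0.44), overlapped between the groups.

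**Figure D2:**
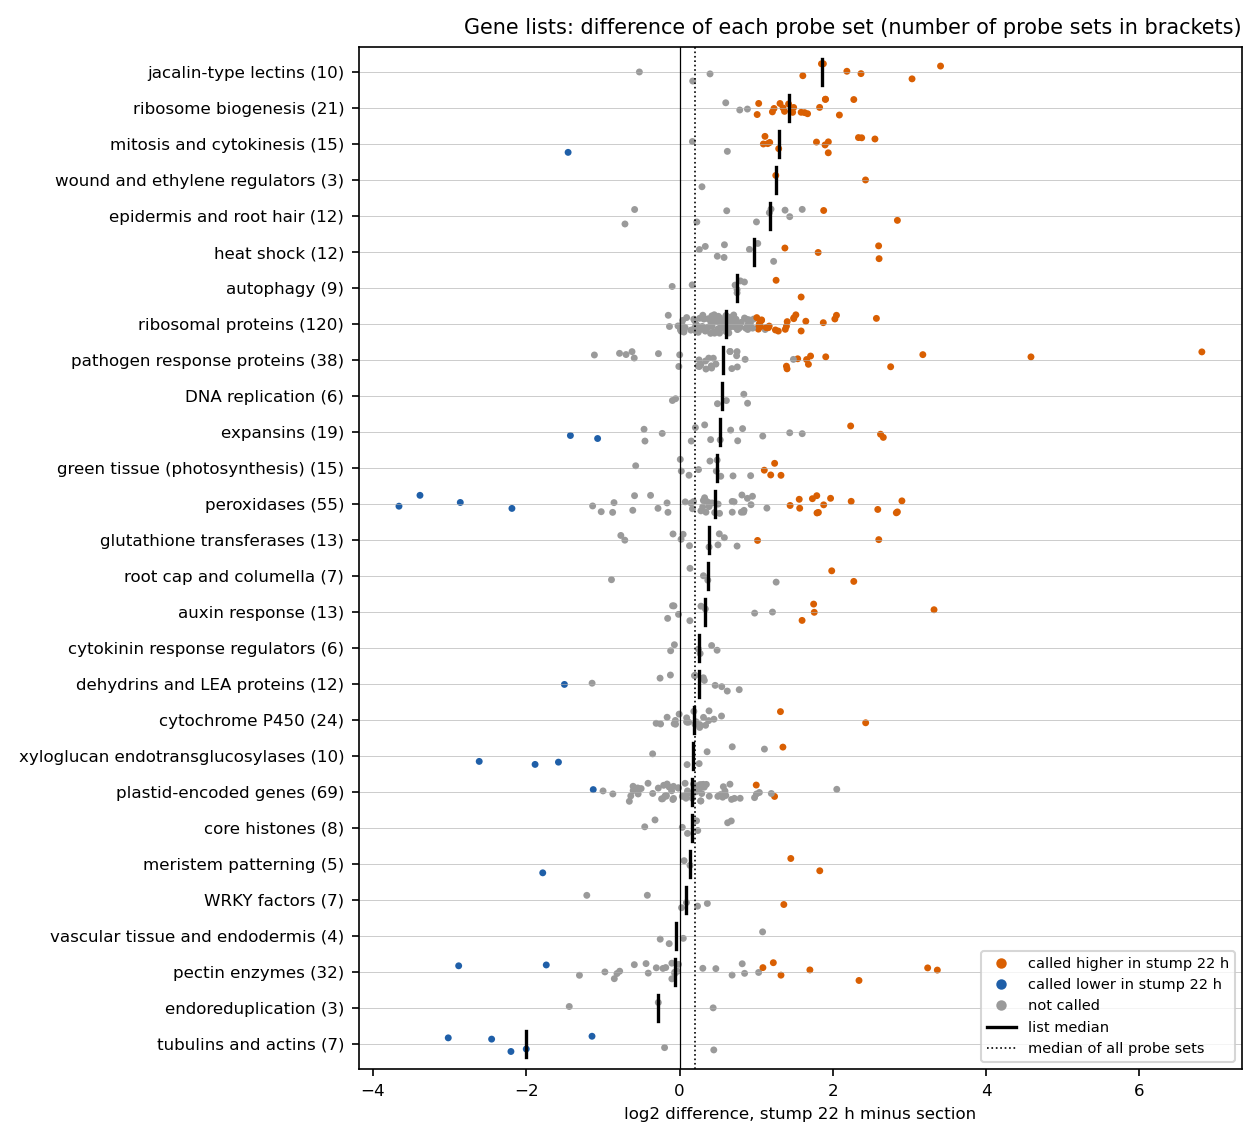
Log2 difference, stump at 22 h minus section, on the horizontal axis for every probe set of 28 gene lists, ordered from the highest to the lowest list median. Points in orange were called higher in the stump, in blue lower and in grey not called; black bars are list medians and the dotted line is the median of all probe sets (0.20). Jacalin-type lectins, ribosome biogenesis and mitosis lie to the right, and tubulins lie furthest to the left.

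Tubulins had the lowest median of the 28 lists. Of 7 genes in the list of tubulins and actins, all of them tubulins, 5 were called lower in the stump and none higher, with a median of -2.0. Besides TUB1, described above, TUB5 had 364.3, 885.6, 467.7, 464.7 and 362.0 in the stump, against 2581, 2714 and 3052 in the section (log2 difference -2.45 ± 0.35, adjusted p = 4.96e-06). TUB6 had 213.0, 665.6, 651.0, 667.4 and 641.5 in the stump, against 2126, 2644 and 2912 in the section (-2.20 ± 0.35, adjusted p = 3.13e-05). TUB9 had 954.8, 719.1, 847.1, 853.3 and 944.8 in the stump, against 1705, 1803 and 2356 in the section (-1.14 ± 0.18, adjusted p = 1.86e-05). With quantile normalization TUB9 fell short of the required difference (-0.98). TUA6 was lower too (-2.0). None of the 4 with values by array overlapped between the groups. Beta-tubulins build the microtubules that line elongating cells. TUB7 (-0.20) and the alpha-tubulin gene TUA1 (0.45), known from pollen, were not called.

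Enzymes that remodel the wall were split rather than shifted. XTH16, XTH21 and XTH19, genes of xyloglucan endotransglucosylases, were lower in the stump and XTH20 was higher, out of 10 genes of the family. XTH16 had signals of 178.9, 179.8, 313.3, 219.0 and 198.1 in the stump, against 1263, 1363 and 1846 in the section (log2 difference -2.61 ± 0.39, adjusted p = 1.02e-05). This was the strongest of the family, with no overlap. XTH20 had 148.8, 318.6, 90.2, 74.7 and 50.5 in the stump, against 25.2, 9.4 and 48.9 in the section, and its call (1.35 ± 0.44, adjusted p = 0.0316) was lost without any one of stump arrays 1 and 2 or section arrays 1 and 2. For XTH19 (-1.58) the adjusted p was 0.055 without section array 3. The median of the family was 0.18, beside 0.20 for all probe sets.

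Expansins loosen walls during growth, and 3 of 19 were called higher (15.8%, beside 7.43% of all probe sets) and 2 lower (10.5%, beside 4.75%). EXPA20 had signals of 209.4, 173.3, 357.0, 225.3 and 203.6 in the stump, against 16.8, 5.6 and 8.6 in the section (log2 difference 2.62 ± 0.27, adjusted p = 2.47e-08). EXPA4 had 223.5, 157.2, 136.2, 143.4 and 172.9 in the stump, against 16.4, 11.4 and 2.7 in the section (2.23 ± 0.34, adjusted p = 1.72e-05). Both were raised in every stump array to a like extent. EXPA8 (2.66) was raised too, but stump array 2 had 1252 and the other 4 had 177.4 to 189.2. EXPB1 (-1.42) and EXLA2 (-1.07) were lower in the stump, EXPB1 with an adjusted p of 0.0599 without section array 3. Among 32 probe sets of pectin enzymes, 7 were higher and 2 lower with a median of -0.06, led by AT3G53190 and AT1G02810 on the one side and AT3G07010 on the other. Without section array 2, 3 were higher.

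Peroxidases of the secretory class, which use hydrogen peroxide to modify walls, went both ways. Of 55, 14 were called higher in the stump (25.5%, beside 7.43% of all probe sets) and 4 lower (7.27%, beside 4.75%). AT5G64120 had signals of 69.7, 2228, 1089, 181.5 and 211.1 in the stump, against 5.9, 23.4 and 53.7 in the section (log2 difference 2.90 ± 0.56, adjusted p = 0.000303). AT5G39580 had 142.8, 646.1, 315.6, 56.7 and 280.2 in the stump, against 7.0, 25.7 and 40.3 in the section (2.24 ± 0.43, adjusted p = 0.000303). The groups did not overlap, yet the stump values spanned a wide range with array 2 the highest in both. The 4 lower genes were AT4G11290 (-3.66), AT4G30170 (-3.39), AT3G01190 (-2.86) and AT2G18980 (-2.19). Without stump arrays 2 and 3 the count of higher peroxidases was 6 and that of lower ones 4, and without section array 2 there were 9 higher.

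Genes for defence proteins and lectins were also among those higher in the stump. Of 38 genes for pathogen response proteins 11 were called higher and none lower, with a median of 0.57. Beside AT2G38870 and LCR69, they included chitinase genes. AT1G56680 had 507.5, 185.5, 262.3, 793.8 and 1213 in the stump, against 8.5, 38.2 and 32.4 in the section (log2 difference 3.18 ± 0.37, adjusted p = 2.54e-07). AT2G43620 had 218.0, 824.1, 704.2, 356.2 and 276.4 in the stump, against 15.8, 32.7 and 65.1 in the section (2.76 ± 0.46, adjusted p = 5.42e-05). The groups were apart for both, with different stump arrays at the top. With a 4-fold larger pseudocount the list had 7 called higher.

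Jacalin-type lectins, carbohydrate-binding proteins abundant in roots, had 7 of 10 genes called higher, none lower, and the highest median of all lists at 1.86. AT1G33790 had 1015, 642.4, 852.5, 906.2 and 1186 in the stump, against 56.4, 89.4 and 106.5 in the section (log2 difference 3.03 ± 0.24, adjusted p = 9.9e-11). JAL33 had 2641, 3302, 2563, 3795 and 4315 in the stump, against 959.3, 1001 and 669.7 in the section (1.88 ± 0.27, adjusted p = 5.41e-06). These 2 were raised evenly and without overlap. AT1G52070 (2.37, adjusted p = 0.00022) was uneven, since stump array 2 with 203.7 lay below the section maximum of 324.8 while stump array 5 reached 2981. JAL34, the brightest gene of the list, went the other way, averaging 7907 in the stump and 11299 in the section. Its difference of -0.52 was not called (adjusted p = 0.208), although every stump array lay below every section array. Lectin genes of this family lie in clusters of similar sequence, so neighbouring probe sets may share transcripts.

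Genes of wounding, stress and hormones were also among the calls. Of 3 wound and ethylene regulators, AT5G61890, an ERF factor gene, had 295.1, 275.4, 529.4, 141.1 and 126.5 in the stump, against 18.6, 3.6 and 41.6 in the section (log2 difference 2.43 ± 0.46, adjusted p = 0.000251). The zinc finger gene STZ was also called (1.26 ± 0.37, adjusted p = 0.0176), but not without section array 2 (adjusted p = 0.132), and ORA47 was not (0.29). Heat shock genes had 4 of 12 called higher (33.3%, beside 7.43% of all probe sets). Hsp70-2 had 766.1, 210.1, 1306, 979.8 and 568.9 in the stump, against 186.4, 26.7 and 83.7 in the section (2.60 ± 0.38, adjusted p = 8.71e-06). AT1G54050 (2.60) was likewise apart, while AT2G29500 (1.81) and AT5G37670 (1.38) overlapped between the groups, and AT5G37670 lost its call when any single array other than stump array 1 was left out. Glutathione transferases, which conjugate toxic compounds, had 2 of 13 called higher, led by GSTU25 (2.60, adjusted p = 2.55e-06) with 1271 to 5722 in the stump against 461.3 to 605.4 in the section. The second, GSTU16 (1.02), lost its call under 10 of 19 alternatives.

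Of 13 auxin response genes 4 were called higher and none lower, and the median of the list was 0.34, beside 0.20 for all probe sets. IAA33, described above, varied least among the stump arrays of the 4. WES1, a GH3 gene whose product conjugates auxin, had 298.2, 120.5, 224.4, 161.5 and 111.5 in the stump, against 22.8, 26.5 and 64.1 in the section (1.6 ± 0.42, adjusted p = 0.00725). GH3.3 had 60.7, 101.3, 412.0, 16.6 and 133.4 in the stump, against 2.5, 10.2 and 11.2 in the section (1.76 ± 0.48, adjusted p = 0.00969). Both were apart, although GH3.3 came close to the section in stump array 4 and had an adjusted p of 0.081 without stump arrays 2 and 3. AT1G23160 (1.75) overlapped the section in stump array 3. None of 6 cytokinin response regulators was called. In the rest of the lists the calls were few, with WRKY47 (1.36) of 7 WRKY factors, ATG8G (1.59) and ATG8B (1.26) of 9 autophagy genes, CYP71B6 (2.43) and CYP71B26 (1.32) of 24 cytochrome P450 genes, and AT2G44060 (-1.50) of 12 dehydrins and LEA proteins. Of these 6 genes ATG8B was the least stable, losing its call without any one of 6 arrays. The share of cytochrome P450 genes called higher (8.33%) was close to that of all probe sets (7.43%).

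To place these differences in time, the same lists were read in the fresh stump. The fresh stump (0 h) against the section used the same section arrays, and the stump at 22 h against 0 h used the same stump arrays, so the 3 comparisons are not independent. In stump 0 h against section, 6.16% of probe sets were called higher and 4.03% lower. In stump 22 h against stump 0 h, 1.27% were called higher and 0.198% lower. The arrays at 0 h had the lowest pairwise r of any group (0.793 to 0.929). A missing call between 22 h and 0 h therefore does not show equal levels. Ribosome biogenesis had 18 of 21 genes higher in the fresh stump than in the section, and none called between 22 h and 0 h. Mitosis and cytokinesis had 9 of 15 higher and 1 lower in the fresh stump than in the section, and again none called between 22 h and 0 h. The list of tubulins and actins, which held only tubulins, had 5 of 7 lower in the fresh stump than in the section. In it 1 gene (TUB5) was lower at 22 h than at 0 h. By these counts the lists for division, ribosome production and tubulin already stood apart from the section in the stump as it was cut.

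Other lists had more genes called higher at 22 h against 0 h than in the fresh stump against the section. Pathogen response proteins had 3 of 38 called higher and 1 lower in the fresh stump against the section, beside 8 higher at 22 h against 0 h. Peroxidases had 2 higher and 7 lower of 55 in the fresh stump, beside 6 higher and none lower at 22 h against 0 h. AT2G38870 averaged 138.5 at 0 h, 2459 at 5 h, 4542 at 13 h and 6517 ± 2684 at 22 h (SD, n = 5), against 24.3 ± 18.5 in the section (n = 3) and 585.3 in the intact tip. IAA33 averaged 16.7 at 0 h, 130.7 at 5 h, 419.9 at 13 h and 390.8 ± 87.0 at 22 h, against 11 ± 13.5 in the section and 111.3 in the tip. Both genes averaged more at 22 h than in the tip. In the fresh stump neither was called against the section (AT2G38870 1.13, adjusted p = 0.0954, and IAA33 0.20). For AT2G38870 the difference between 22 h and 0 h was 5.69 (adjusted p = 1.41e-11), and for IAA33 it was 3.12 (adjusted p = 5.02e-09).

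BBM averaged 19.3 at 0 h, 147.7 at 5 h, 115.8 at 13 h and 121.5 ± 59.4 at 22 h, against 8.37 ± 3.61 in the section and 163.0 in the tip. It was higher at 22 h than at 0 h (1.5, adjusted p = 0.015), and not called in the fresh stump against the section (0.33, adjusted p = 0.605). AUR2 averaged 289.6 at 0 h, 133.8 at 5 h, 346.4 at 13 h and 460.9 ± 95.9 at 22 h, against 62.7 ± 18.9 in the section and 306.0 in the tip. For AUR2 the fresh stump was already higher than the section (1.74, adjusted p = 7.11e-05), and 22 h against 0 h was not called (0.64, adjusted p = 0.222). XTH16 averaged 297.1, 332.0, 339.8 and 217.8 ± 55.8 at 0, 5, 13 and 22 h, against 1490 ± 312 in the section and 52.5 in the tip. It stayed between the tip and the section at all 4 times.

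**Figure D3:**
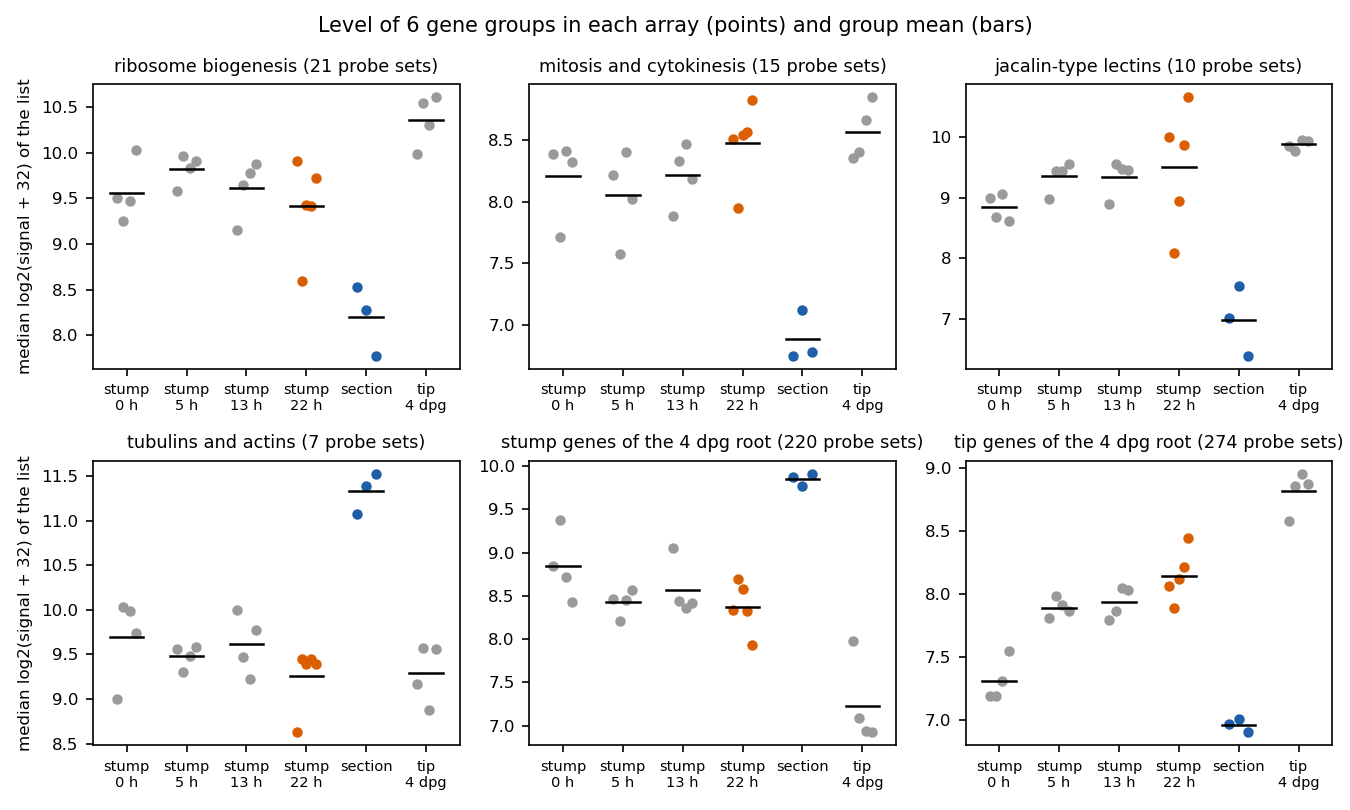
Median log2(signal + 32) of 6 gene groups in each array (points) with the mean over arrays (bars), for stumps 0, 5, 13 and 22 h after the cut, the section and the intact tip of 4 dpg. Stump at 22 h is orange and section blue. For ribosome biogenesis, mitosis and tubulins every stump time lies on one side of the section, and the tip genes average 7.31 at 0 h and 8.14 at 22 h, beside 6.96 in the section and 8.81 in the tip. The arrays at 0 h and of the tip chose the stump genes and tip genes, so their levels lie apart by that choice. A shift from 0 h to later times is partly set by it too.

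Which proximal genes the late stump had at levels like those of the section was read from genes chosen in other arrays. Stump genes were the 220 probe sets (0.967% of all) called higher in the fresh stump than in the intact tip of 4 dpg, and tip genes were the 274 (1.2%) called lower there. Neither group of arrays enters the difference between the stump at 22 h and the section, although all share the estimate of spread. Both choosing groups were less alike within themselves than the section, with pairwise r of 0.793 to 0.929 in the fresh stump. In the tip it was 0.87 to 0.945. Of the 220 stump genes, 110 (50%, beside 4.75% of all probe sets) were called lower in the stump at 22 h than in the section, 2 were called higher, and the median difference was -1.05. The interval lay between -1 and 1 for 31 of them (14.1%, beside 38.5% of all). The stump genes were brighter than probe sets at large. In 199 of the 220 the mean was above the median of all signals, against 11524 of 22746. The shares over all probe sets are therefore not a like yardstick for this set. Averaged over arrays, the median level of stump genes was 8.37 ± 0.29 in the stump at 22 h and 9.85 ± 0.07 in the section (SD of log2 levels, n = 5 and 3), beside 8.84 in the fresh stump and 7.23 in the tip. The late stump thus lay below the section for this set. The arrays of the tip and the fresh stump chose the set, so the place of the late stump relative to them was partly set in advance.

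Of the 119 stump genes with a name, 56 were called lower, 1 higher and 62 not called, where all named probe sets gave 3.91% lower and 7.54% higher. In order of the difference that chose them, an order set after the values were seen, they began with AT1G62480 and AT4G30170, both already given among the lowest genes of the stump. AT1G04040, a gene of the acid phosphatase family, had 1193, 3772, 2662, 1432 and 631.2 in the stump at 22 h, against 4607, 5964 and 7180 in the section (log2 difference -1.83, 95% interval -3.04 to -0.61, adjusted p = 0.0316). The subtilase gene SBT4.12 had 1082, 1358, 887.8, 407.2 and 222.5 in the stump, against 2658, 3767 and 4692 in the section (-2.40, interval -3.29 to -1.5, adjusted p = 0.00019). Both lay below the section in every stump array. LCR68, a defensin gene, is a counterexample, with 779.2, 4195, 2582, 788.4 and 496.5 in the stump against 1954, 1847 and 2549 in the section. Its difference of -0.70 was not called (adjusted p = 0.394), but the interval of -1.75 to 0.35 also admits a level below the section, and stump arrays 2 and 3 were again the highest. A difference from the section does not show a change since the cut. From 0 to 22 h the means (± SD, n = 4 and 5) went from 371.7 ± 239.2 to 1768 ± 1589 for LCR68. They went from 1792 ± 2461 to 1938 ± 1266 for AT1G04040 and from 1179 ± 435.3 to 791.5 ± 470.7 for SBT4.12. The arrays at 0 h also took part in choosing these genes.

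The 12 named stump genes with an interval between -1 and 1 were of 2 kinds. In 6 of them both means were below 90.3, as for AT4G21240 (22.6 in the stump at 22 h and 29.6 in the section, beside 96.0 in the fresh stump) and AT5G44970 (11.9 in the stump and 3.67 in the section, beside 66.8 in the fresh stump), and for these the interval says little about the ratio. The brighter ones can be compared. UBC30, a ubiquitin-conjugating enzyme gene, had 1795, 1839, 2038, 1401 and 1526 in the stump at 22 h, against 1396, 1262 and 1359 in the section, and 560.4 ± 451.1 in the tip (n = 4). Its difference from the section was 0.34 with an interval of -0.27 to 0.96. AT5G59410 had 754.8, 853.5, 700.4, 443.1 and 543.6 in the stump, against 954.5, 657.0 and 843.7 in the section, and 365.4 ± 177.4 in the tip (difference -0.32, interval -0.89 to 0.25). For both bright genes the interval excluded a doubling or halving with the signals as deposited. AT3G17780 (-0.42, interval -0.85 to 0.01) and AT5G37480 (-0.01, interval -0.56 to 0.54) were alike in this. Differences shift with scaling, as given above, and the intervals under other scalings were not examined. The 1 named stump gene that was higher at 22 h than in the section was AT2G23120 (1.81, interval 1.06 to 2.57, adjusted p = 0.000671), averaging 8044 in the stump and 2124 in the section.

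Tip genes gave the opposite picture. Of 274, 135 (49.3%, beside 7.43% of all probe sets) were called higher in the stump at 22 h than in the section and none lower, and the median difference was 1.04. With a 4-fold larger pseudocount 85 were called higher, and with median centring 94 were higher and 4 lower. The interval lay between -1 and 1 for 43 (15.7%). Tip genes were also brighter than probe sets at large, with 215 of 274 above the median of all signals. The same limit on the shares over all probe sets applies. AT5G60520, a gene with a late embryogenesis abundant domain that is listed here among root cap genes, had 895.9, 663.3, 862.8, 1238 and 2223 in the stump, against 178.6, 203.2 and 209.3 in the section, and 1874 ± 271 in the tip (difference 2.27, interval 1.69 to 2.86, adjusted p = 7.73e-07). AT5G47050 had 91.4, 295.4, 256.1, 263.8 and 380.3 in the stump, against 60.3, 45.6 and 65.4 in the section, and 437.6 ± 65.9 in the tip (1.6, interval 0.95 to 2.25, adjusted p = 0.000481). Both were above the section in each stump array. AT1G50060, the tip gene with the largest choosing difference, was uneven, with 307.4, 5.7, 62.0, 15.2 and 194.9 in the stump against 3.0, 11.7 and 2.6 in the section and 1505 ± 698 in the tip. It was not called (1.49, adjusted p = 0.0647), and stump array 2 lay within the range of the section. AT3G19430, at 1814 ± 1831 in the intact tip with 1 array at 4535, had 57.1 to 307.2 in the stump and 16.1 to 42.2 in the section. It was not called (1.26, adjusted p = 0.0636), although its groups did not overlap. Several alternatives called it, among them array weights (adjusted p = 0.0162) and the fit without stump arrays 2 and 3 (adjusted p = 0.0216).

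**Figure D4:**
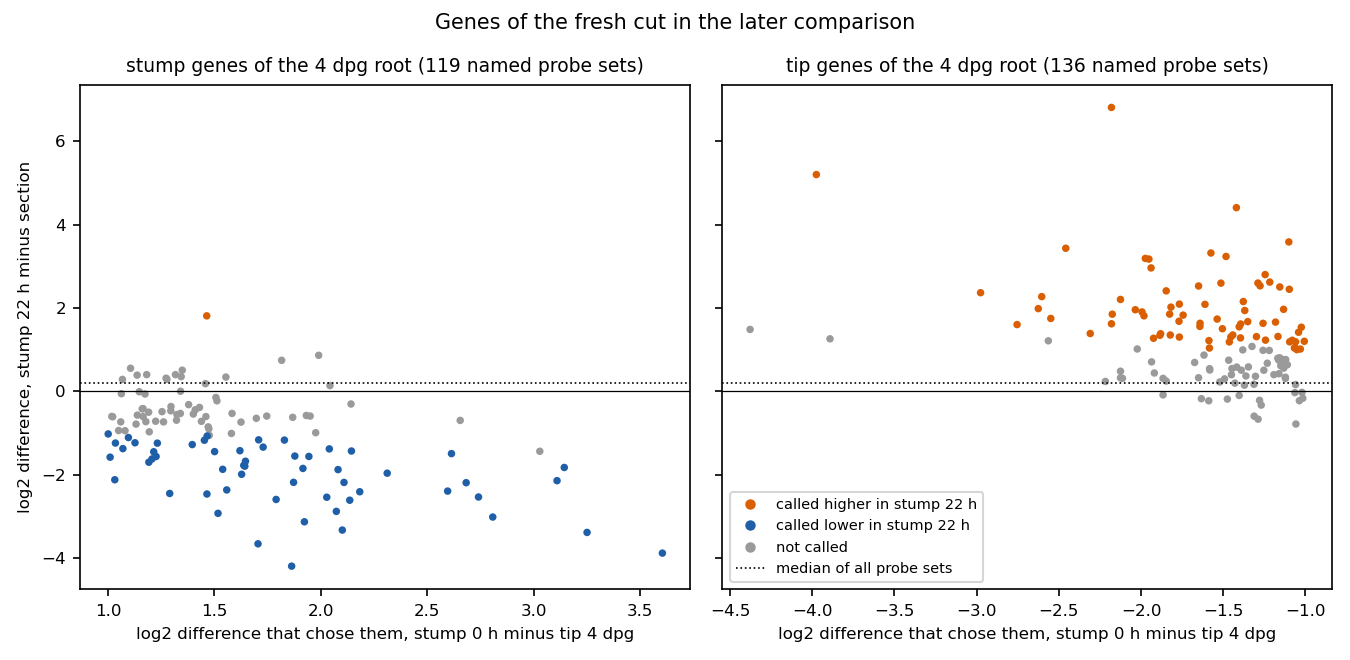
Each point is a named probe set. The horizontal axis gives the log2 difference by which it was chosen, stump at 0 h minus tip of 4 dpg, and the vertical axis the log2 difference of the stump at 22 h minus the section. Of 119 stump genes (left) 56 were called lower (blue) and 1 higher (orange); of 136 tip genes (right) 73 were called higher and none lower.

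Markers of tissues other than meristem were read in both groups. The summed signal of 15 photosynthesis genes was 1697 to 2940 in the stump at 22 h and 1040 to 1624 in the section, with every stump array above every section array, and all 4 genes called higher (PSBW, LHCB4.1, PSAE-1 and PORB) lost the call in several settings. The 69 plastid-encoded genes had 2 called higher and 1 lower. For 4 genes of vascular tissue and endodermis the sums were 136.1 to 599.9 in the stump and 216 to 348.9 in the section, with none called. Root cap genes summed to 3207 to 5891 in the stump and 3871 to 5176 in the section, where AT1G54890 alone gave 3501 to 4792, and 2 of 7 were called higher (AT5G60520 and AT5G60530). AT1G54890 went the other way from the rest of the list, with every stump array below every section array. It was not called with the signals as deposited, and was called lower with median centring (-1.26, adjusted p = 0.0189). Without AT1G54890 the root cap sum was 2605, 923.6, 1201, 1723 and 3535 in the stump, against 370, 348.6 and 384.4 in the section. The full root cap sum overlapped between the groups, and only the sum without AT1G54890 separated them. The sum of photosynthesis genes separated the groups as well. The part of root cap and photosynthesis genes in the other differences was not tested.

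Root hair genes differed between the stump arrays themselves. The 12 epidermis and root hair genes summed to 3297, 5118, 4899, 1072 and 953.3 in the stump at 22 h, against 964.8, 1089 and 1210 in the section. AT1G30870, a root hair peroxidase gene, had 199.8, 1171, 924.2, 22.4 and 67.6 in the stump, against 9.8, 4.8 and 2.8 in the section (log2 difference 2.84 ± 0.69, adjusted p = 0.0037). EXPA7, a root hair expansin gene, had 46.2, 704.7, 587.4, 75.9 and 85.6 in the stump, against 45.7, 73.3 and 11.1 in the section (1.6 ± 0.61, adjusted p = 0.0702). Of the 12 genes 2 were called higher, and none without stump arrays 2 and 3. Stump arrays 2 and 3 were the highest for both AT1G30870 and EXPA7. For EXPA7 stump array 1 lay within the section range, while AT1G30870 and, in stump array 1, the sum stayed above the section. In all, 7 of the 12 genes and 19 of 55 peroxidases were higher in arrays 2 and 3 than in each of the other 3, beside 10.8% of all probe sets. The same held for 10 of the 15 genes furthest lower in the stump. Other lists went the opposite way. Lower in arrays 2 and 3 than in each of the other 3 were 11 of 21 ribosome biogenesis, 4 of 7 root cap and 5 of 15 mitosis genes, beside 12.7% of all probe sets. These lists had no gene higher in both arrays. Without these 2 arrays the calls of AT1G30870 (adjusted p = 0.0716) and AT4G26010 (adjusted p = 0.0693) were lost, while the list counts without them were 12 of 15 for mitosis, 18 of 21 for ribosome biogenesis and 5 of 7 lower for tubulins. The part of root hair RNA in the other differences was not tested.

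**Figure D5:**
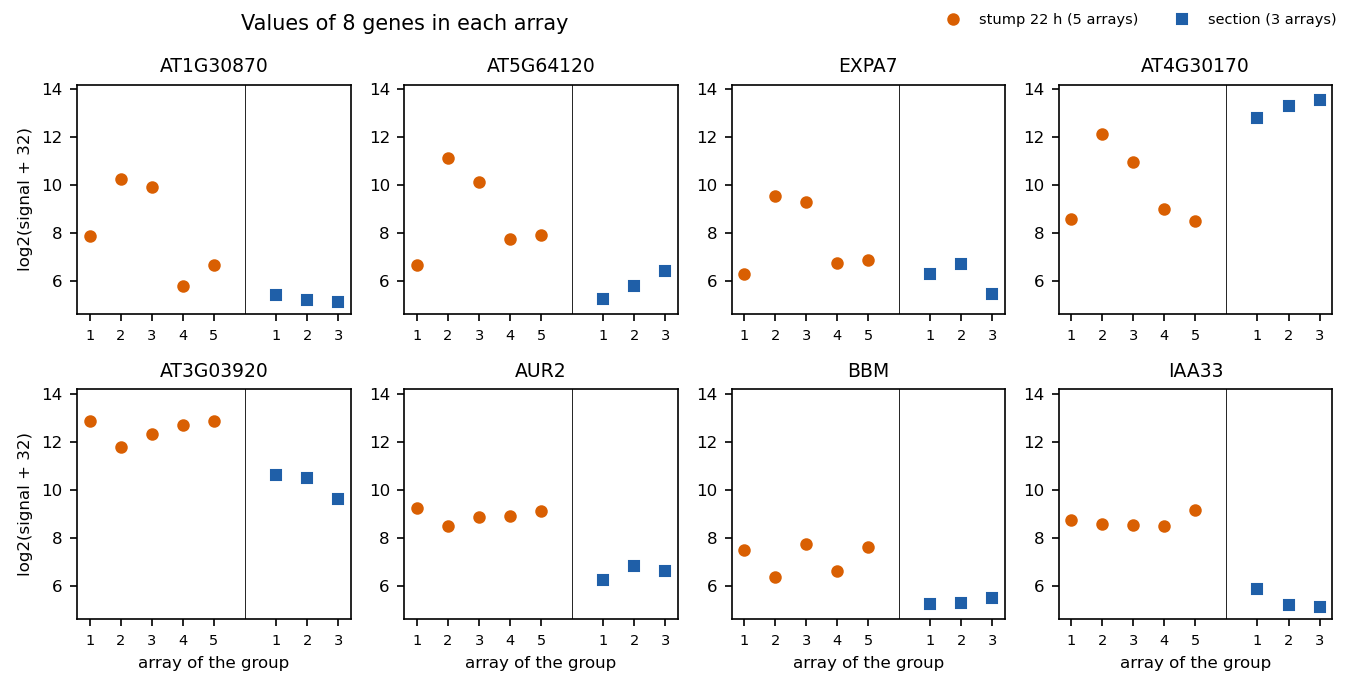
Log2(signal + 32) of 8 genes in stump arrays 1 to 5 (orange circles) and section arrays 1 to 3 (blue squares). In AT1G30870, AT5G64120, EXPA7 and AT4G30170 stump arrays 2 and 3 are the highest of the stump group, whereas AT3G03920, AUR2, BBM and IAA33 lie above the section in all 5 stump arrays. For AT3G03920 and AUR2 stump arrays 2 and 3 are the lowest of the stump group.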

How the data were processed

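RNA of pooled root pieces was hybridised to 30 Affymetrix ATH1 arrays. The authors deposited 1 linear intensity per probe set and array, an MAS5 signal per the submitters' processing notes (version not given in the sources used here). Precision is limited by how many arrays each group has.

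Signals were taken as deposited, with no further scaling, and transformed as log2(signal + 32). One model over all 30 arrays, with each group as its own term, was fitted in limma 3.58.1 (R 4.3.3; lmFit, contrasts.fit, eBayes with trend), with Benjamini-Hochberg adjustment over 22746 probe sets. Calls needed an adjusted p under 0.05 and a log2 difference of at least 1. The fit was tested on simulated data. Alternatives changed the pseudocount, scaling, filter, prior trend, array weights, block and arrays used.

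A platform table named 13513 probe sets by 1 gene, 503 by several and 8730 by none; 13436 matched RefSeq gene IDs. Named genes were the 15 furthest higher and 15 furthest lower among calls with a bright group, up to 4 per list by p, and all meristem patterning and endoreduplication genes. Other genes in the text were chosen after their values were seen. Members and lists were chosen with earlier results of these data known. Promoter motifs were not analysed here.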

Additional observations from a re-analysis of the deposited data

Results flagged for a closer look

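Among 131 sets of 5 stump signals at 22 h, 8 held 1 array far from the other 4 relative to the range, where chance alone gives about 1 in 20. Stump array 2 was high for EXPA8 (1252.2) and TUB5 (885.6) and low for AT2G40360 (3133.4) and rps15 (262.9). Stump array 1 was high for 3xHMG-box2 (2073.6) and low for UGT87A2 (182.7) and TUB6 (213). Stump array 5 was high for RR23 (48.5).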

How the results depend on the processing

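No named gene that was called changed sign under the 19 alternatives. With a 4-fold larger pseudocount, 1291 probe sets were called, 656 higher and 635 lower, with 1 stump gene and 85 tip genes higher. Median centring turned the balance of calls, with 773 higher and 2218 lower, and gave 4 tip genes lower. With quantile normalization, the filter on dim probe sets, array weights, or without stump arrays 2 and 3, 1 tip gene was called lower where the values reported had none. Same-numbered arrays of both groups did not deviate together (r of 0.054, -0.012 and 0.016), so they share only a number. With the replicate block 1910 probe sets were higher and 1030 lower, 1 tip gene was lower, 8 epidermis and root hair genes and 6 expansins were higher, and 4 named calls were lost. Leaving out 1 array gave 1960 to 3078 calls, 1172 to 1859 higher and 788 to 1219 lower, with 2 to 3 stump genes higher, 91 to 118 lower, 109 to 141 tip genes higher and 0 to 1 lower. The lowest total came without section array 3. With only the arrays of the stump at 22 h and the section in the fit, 2361 probe sets were called, 1371 higher and 990 lower. That fit lost 7 named calls, among them AT1G23160 (adjusted p = 0.061). The cause of these shifts was not tested. Of 92 named genes called, 65 kept their call under every alternative that tested them (9 of the 92 were removed by the filter on dim probe sets), and 27 lost it in at least 1, most often with a 4-fold larger pseudocount (22). No promoter motif count was run.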
